A study of Mus musculus with 16 samples.

Results

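The genes described here are 9 receptors for extracellular adenosine and nucleotides in mouse bone marrow-derived mast cells (BMMCs). They are the adenosine receptor genes Adora2a, Adora2b and Adora3, the ATP-gated channel genes P2rx1, P2rx4 and P2rx7, and the G protein-coupled nucleotide receptor genes P2ry1, P2ry2 and P2ry14. They were taken by gene symbol with no threshold on a measured value, though the choice of genes was made with earlier results of these data known, and make up 9 of the 39179 genes counted. All 9 passed the filter on low counts.

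Cells release ATP and other nucleotides when they are activated or damaged, and enzymes on the cell surface break ATP down to ADP, AMP and adenosine. P2X receptors are cation channels that open when ATP binds, P2Y receptors bind nucleotides such as ADP, ATP, UTP or UDP-glucose and signal through G proteins, and P1 receptors bind adenosine. In mast cells, adenosine has long been known to modulate degranulation that is started through the IgE receptor, and ATP can itself activate these cells.

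BMMCs were grown for 4 weeks with stem cell factor and IL3 from bone marrow of male C57BL/6 mice aged 8 to 10 weeks. The mice were PEP+/+ or PEP-/-, that is with or without the tyrosine phosphatase PEP, the product of Ptpn22. In each genotype there were 4 treatments of 2 samples each, giving 16 RNA-seq samples. The number of mice and of separate cultures behind them is not given in the sources used here, although the study calls the duplicates biological replicates, so p-values measure only the spread between these samples.

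Every sample, controls included, received IgE for 3 h, at 0.05 µg/ml by the sample labels, while the study's methods state another dose. IgE samples received nothing else. IgE DNP samples also received the antigen DNP at 200 ng/ml for 1 h. By the study's methods it was given coupled to bovine serum albumin, and this conjugate cross-links the IgE on its receptor. IgE DEX samples received the glucocorticoid dexamethasone (DEX) at 100 nM for 8 h, and IgE DNP DEX samples received both. There was no sample without IgE. The labels give each condition 1 numbered and 1 lettered sample, called replicate 1 and replicate 2 here.

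The samples held 8612531 to 22143526 reads on genes. Ptpn22 had 130 to 2799 reads in the PEP+/+ samples and 0 to 55 in the PEP-/- samples. Of 10 mast cell markers, 9 were above 1 CPM (counts scaled to a common library size of 1e+06 with edgeR's TMM factors) in every sample, among them Kit and Fcer1a, and the summed level of the list was 63080 to 72200 CPM in IgE, 69460 to 85480 in IgE DNP, 70400 to 77620 in IgE DEX and 80540 to 103600 in IgE DNP DEX samples. The basophil markers Mcpt8 and Prss34 summed to 19.8 to 122 CPM and were highest in a PEP+/+ sample. The summed levels of the neutrophil, eosinophil, dendritic cell and T and B cell lists were at most 2.48 CPM, that of the macrophage list at most 7.23 CPM and that of the erythroid list at most 10.3 CPM. Of 5 megakaryocyte markers 3 were below 1 CPM in every sample, while Itga2b carried the list's sum of 1940 to 3921 CPM. The part of these shifts in the results below was not tested. In such bulk samples fewer cells of a type and less RNA per cell cannot be told apart.

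The members lie on 5 chromosomes of GRCm38. Adora2a is on chromosome 10 (75316877 to 75334784), and Adora2b (62248984 to 62266453) and P2rx1 (72999103 to 73015200) are on chromosome 11. P2rx7 (122643911 to 122691432) and P2rx4 (122707544 to 122729738) are neighbours on chromosome 5, both on the plus strand and 16111 bases apart. P2ry2 is on the minus strand of chromosome 7 (100996568 to 101012866). Chromosome 3 carries P2ry14 on the minus strand (59113855 to 59153618), P2ry1 (61002795 to 61008982) and Adora3 (105870858 to 105908926), and Adora3 lies 1958610 bases from Ptpn22, the gene of PEP. Adora3 shares 779 exon bases with Tmigd3 on the same strand, so reads there could not be given to 1 of them, and Tmigd3 had 52 to 181 reads against 1210 to 5814 for Adora3. P2ry14 lies inside Med12l on the opposite strand with no shared exon base, and P2ry1 shares 992 exon bases with Gm37035 on the opposite strand. Whether the counting used the strand is not given in the sources used here.

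Promoter sequence from RefSeq (GRCm38.p6) was matched for 8 of the 9 genes, all but Adora2a. Below are the 250 bases before the start of 6 genes, written 5′ to 3′ on the strand of the gene, because these are genes whose transcripts changed most by DNP or by DEX or that differ in the motifs they hold. Where a gene has several starts in RefSeq, the most upstream was taken. The windows of Adora3 and P2ry2 lie wholly inside the gene spans given above, so they are not upstream of the genes as counted. The 3 short motifs searched are in capitals wherever they occur on either strand: TGANTCA, bound by AP-1 factors, TGACG, a core of the CREB site, and AGAACA, one arm of the site of the glucocorticoid receptor.
Adora2b, chr11:62248734-62248983, plus strand: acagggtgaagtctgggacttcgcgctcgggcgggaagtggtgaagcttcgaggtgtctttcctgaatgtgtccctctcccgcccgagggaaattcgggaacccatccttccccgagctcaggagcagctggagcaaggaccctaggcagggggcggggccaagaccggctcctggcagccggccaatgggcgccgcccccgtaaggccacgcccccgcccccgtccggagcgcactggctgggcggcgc
P2ry2, chr7:101012054-101012303, minus strand: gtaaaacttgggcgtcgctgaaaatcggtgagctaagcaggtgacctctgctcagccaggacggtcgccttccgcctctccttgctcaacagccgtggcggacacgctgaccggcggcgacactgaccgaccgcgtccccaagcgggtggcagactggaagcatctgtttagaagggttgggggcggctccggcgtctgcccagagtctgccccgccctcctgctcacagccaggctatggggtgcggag
P2rx7, chr5:122643677-122643926, plus strand: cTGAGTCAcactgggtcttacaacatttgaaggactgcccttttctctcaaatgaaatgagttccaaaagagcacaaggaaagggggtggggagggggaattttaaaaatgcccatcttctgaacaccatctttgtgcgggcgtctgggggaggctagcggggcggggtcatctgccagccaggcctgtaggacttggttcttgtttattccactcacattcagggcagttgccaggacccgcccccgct
Adora3, chr3:105904171-105904420, plus strand: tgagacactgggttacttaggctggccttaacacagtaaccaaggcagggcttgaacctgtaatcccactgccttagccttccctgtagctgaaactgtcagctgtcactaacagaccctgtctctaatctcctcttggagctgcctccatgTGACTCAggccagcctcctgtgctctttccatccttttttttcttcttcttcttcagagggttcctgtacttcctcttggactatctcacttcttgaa
P2rx1, chr11:72998895-72999144, plus strand: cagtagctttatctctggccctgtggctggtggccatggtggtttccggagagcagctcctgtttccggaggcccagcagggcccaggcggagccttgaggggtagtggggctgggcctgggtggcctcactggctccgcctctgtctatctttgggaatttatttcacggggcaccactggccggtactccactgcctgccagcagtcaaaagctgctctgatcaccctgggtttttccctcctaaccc
P2ry1, chr3:61002535-61002784, plus strand: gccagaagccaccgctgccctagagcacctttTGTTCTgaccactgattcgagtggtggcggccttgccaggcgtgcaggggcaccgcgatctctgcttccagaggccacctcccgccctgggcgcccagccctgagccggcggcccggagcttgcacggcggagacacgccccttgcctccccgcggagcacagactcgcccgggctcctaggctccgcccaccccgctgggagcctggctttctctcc

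Adora2b, P2ry2 and P2rx1 held none of these motifs in that window. Adora3 held TGANTCA once, starting 98 bases before the RefSeq start, and P2rx7 held it once, at 249 bases. The most upstream P2ry14 start also had 1 match, at 202 bases. Of all 32851 promoter windows of the same length in the RefSeq table, 6.75% held TGANTCA. P2ry1 was the one gene of the 6 with AGAACA, on the other strand at 218 bases, against 16.1% of all windows. TGACG occurred in the window of P2rx4, at 178 and 57 bases, and in 17.8% of all windows. No 2 of these matches overlapped. The motif GGAAA, the core of an NFAT site, is not marked and was found in 55.6% of all windows, including those of Adora2b, Adora3, P2rx1 and P2rx7 but not that of P2ry1 or P2ry2. A match of this kind describes the letters only.

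To compare levels between genes, CPM were divided by the exon length in kilobases. This length joins the exons of all transcripts of a gene in GENCODE M21. Which transcripts the cells used was not tested, so the order of the genes depends on this divisor. In IgE samples the highest mean was that of P2rx7, which forms the low-affinity ATP channel known for opening a large pore, with 93.7 ± 16.3 CPM per kb (SD, n = 4). P2rx1, a fast desensitising ATP channel, had 79.4 ± 8.51 CPM per kb, P2rx4, an ATP channel that also sits in lysosomes, 68.7 ± 8.08, and Adora3, the Gi-coupled A3 adenosine receptor gene, 64.8 ± 7.26. The ranges of each neighbouring pair among these 4 genes overlapped, so their order was not resolved.

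P2ry14, the UDP-glucose receptor gene, followed with 15.7 ± 1.56 CPM per kb, below all samples of the first 4 genes. Before the division its mean was 173.5 CPM, against 208.4 for P2rx1 and 241.6 for Adora3. The gap to these genes thus rests largely on its exon length of 11.06 kb, against 2.625 kb for P2rx1 and 3.729 kb for Adora3. P2ry1, an ADP receptor gene, had 10.1 ± 1.51 CPM per kb and Adora2a, the gene of the Gs-coupled A2a receptor, 9.34 ± 0.46, and their ranges overlapped. Adora2b, which codes for the low-affinity A2b receptor, had 5.01 ± 1.69 CPM per kb. P2ry2, a receptor gene for ATP and UTP, was the lowest with 0.188 ± 0.0296 CPM per kb and had only 8 to 50 reads in any of the 16 samples, so its values have the widest counting error.

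The order changed with treatment. In IgE DNP samples P2rx1 and Adora3 led with 94.9 ± 10.0 and 93.4 ± 14.6 CPM per kb, and Adora2a had moved from rank 7 to rank 3 with 53.0 ± 5.24, with a range that overlapped that of P2rx7 (50.5 ± 8.46). Adora2b then had 31.2 ± 6.39 CPM per kb, above the mean of P2ry14 (23.1 ± 2.45) with overlapping ranges. In IgE DEX samples P2rx7 and P2rx4 led with 65.6 ± 16.1 and 57.9 ± 12.2 CPM per kb. P2ry2 was last under each treatment.

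**Figure D1:**
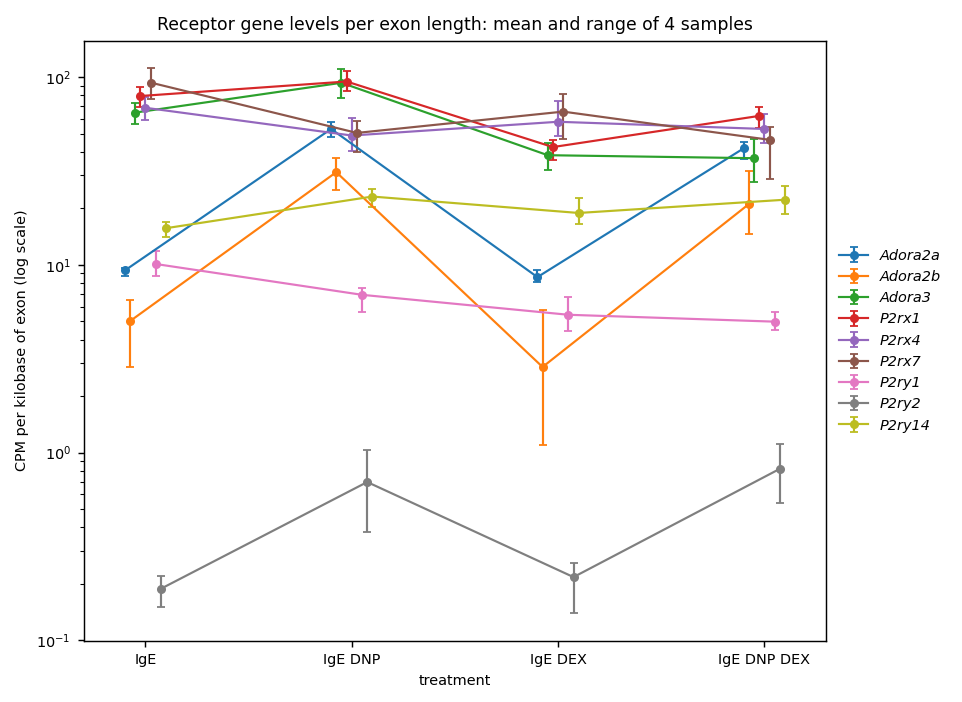
Mean level of each of the 9 receptor genes under the 4 treatments, in CPM per kilobase of exon on a log axis, with bars from the lowest to the highest of 4 samples (2 per genotype). Adora2a and Adora2b rise steeply in both treatments with DNP, and P2ry2 is at most 1.115 throughout. P2rx7 has the highest mean in IgE and IgE DEX, with a range that overlaps that of the next gene in each.

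Activation of sensitised cells by DNP was the first comparison, as the mean over both genotypes of IgE DNP against IgE samples. Of the 9 genes, 7 changed by edgeR's quasi-likelihood test with Benjamini-Hochberg adjustment at 0.05, of which 4 rose and 3 fell. Over all 13305 genes tested, 16.7% changed (9.07% higher, 7.58% lower), and the median log2 fold change was 0.53 for the 9 genes and 0.00 for all genes. The adenosine receptor genes Adora2a and Adora2b rose most, by 5.68-fold and 6.28-fold, while the ATP channel genes P2rx7 and P2rx4 and the ADP receptor gene P2ry1 fell.

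Adora2a, whose receptor raises cAMP, was at 29.6 and 26.6 CPM in the PEP+/+ IgE samples and at 28.5 and 29.6 CPM in the PEP-/- IgE samples. With DNP it was at 149.5 and 178 CPM in PEP+/+ and at 147.5 and 175 CPM in PEP-/- BMMCs. The DNP samples were far above the IgE samples, without overlap, and the log2 fold change was 2.51 ± 0.13 (SE), with an edgeR adjusted p of 3.66e-07. Adora2b, the other Gs-coupled adenosine receptor gene, was at 12.1, 8.33, 11.4 and 5.25 CPM in the IgE samples in the same order and at 68.4, 46.0, 67.0 and 48.8 CPM with DNP. Again no sample overlapped, although replicate 1 was above replicate 2 in all 4 conditions, and the log2 fold change was 2.65 ± 0.44 (edgeR adjusted p = 0.00157). Adora3 was at 272, 211, 255 and 229 CPM without and at 411, 289, 373 and 320 CPM with DNP. The groups did not overlap, yet the log2 fold change of 0.53 ± 0.19 did not pass the test (edgeR adjusted p = 0.0926). With the replicate number as a block it was 0.52 ± 0.11 and passed (edgeR adjusted p = 0.0014).

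Among the ATP channel genes, P2rx7 was at 500, 457, 669 and 610 CPM in IgE and at 238, 285, 333 and 349.6 CPM in IgE DNP samples, in the same order. All samples with DNP were below all samples without, and the log2 fold change was -0.89 ± 0.17 (edgeR adjusted p = 0.00359). P2rx4 was at 465, 416, 550.0 and 501 CPM without and at 336, 284, 427 and 328 CPM with DNP. Here the groups overlapped, since the PEP-/- IgE DNP replicate 1 sample was above the PEP+/+ IgE replicate 2 sample, and the log2 fold change of -0.49 ± 0.15 passed narrowly (edgeR adjusted p = 0.049). That call was lost without any 1 of 11 of the 16 samples, 7 of them among the 8 compared, with adjusted p between 0.04 and 0.174 over all 16 omissions, and it was also lost with DESeq2's size factors (0.0519), without the filter on low counts (0.123) and with only the compared samples in the fit (0.0681). P2rx1 was at 200.4, 181, 232 and 221 CPM without and 221, 241, 252 and 284 CPM with DNP, and its log2 fold change of 0.26 ± 0.12 did not pass (edgeR adjusted p = 0.192), though it did with the replicate block (0.25 ± 0.095, edgeR adjusted p = 0.0477). With the block all 9 genes were called, 6 higher and 3 lower, against 37.9% of all genes in that fit.

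Among the P2Y genes, P2ry2 had 0.588, 0.867, 0.728 and 0.771 CPM in IgE and 4.07, 2.81, 1.48 and 2.59 CPM in IgE DNP samples. The 4 DNP samples were above the 4 IgE samples although they spread widely, and the log2 fold change was 1.84 ± 0.35 (edgeR adjusted p = 0.00388). P2ry14 was at 188.4, 156, 188.4 and 161 CPM without and at 282, 225, 275 and 241 CPM with DNP, with no overlap. Its log2 fold change of 0.56 ± 0.17 passed (edgeR adjusted p = 0.041), but the call was lost without any 1 of 9 samples, 7 of them among the 8 compared, with adjusted p between 0.0398 and 0.152, and without the filter (0.059). P2ry1 was at 46.8, 50.8, 37.2 and 38.7 CPM without and at 31.3, 32.2, 24.0 and 31.4 CPM with DNP. Its groups did not overlap and it fell by 0.54 ± 0.13 on the log2 scale (edgeR adjusted p = 0.0164). This call was lost without the filter (0.119), without PEP+/+ IgE DNP replicate 1 (0.05), PEP-/- IgE DNP replicate 1 (0.0702), PEP+/+ IgE replicate 2 (0.0591) or PEP-/- IgE replicate 2 (0.061).

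TMM scaling set the median change of all genes near 0. Scaling by library size alone, an alternative added after the data were seen, gave a median of -0.34 for DNP without DEX (0.00 with TMM) and of -0.29 for DNP with DEX (-0.025 with TMM), so small increases by DNP depend on the scaling. Under it P2ry14 had 0.22 (edgeR adjusted p = 0.402) and P2rx1 -0.081 in the comparison of IgE DNP with IgE, while Adora2a, Adora2b and P2ry2 remained called. Changes given here are relative to the TMM scaling.

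**Figure D2:**
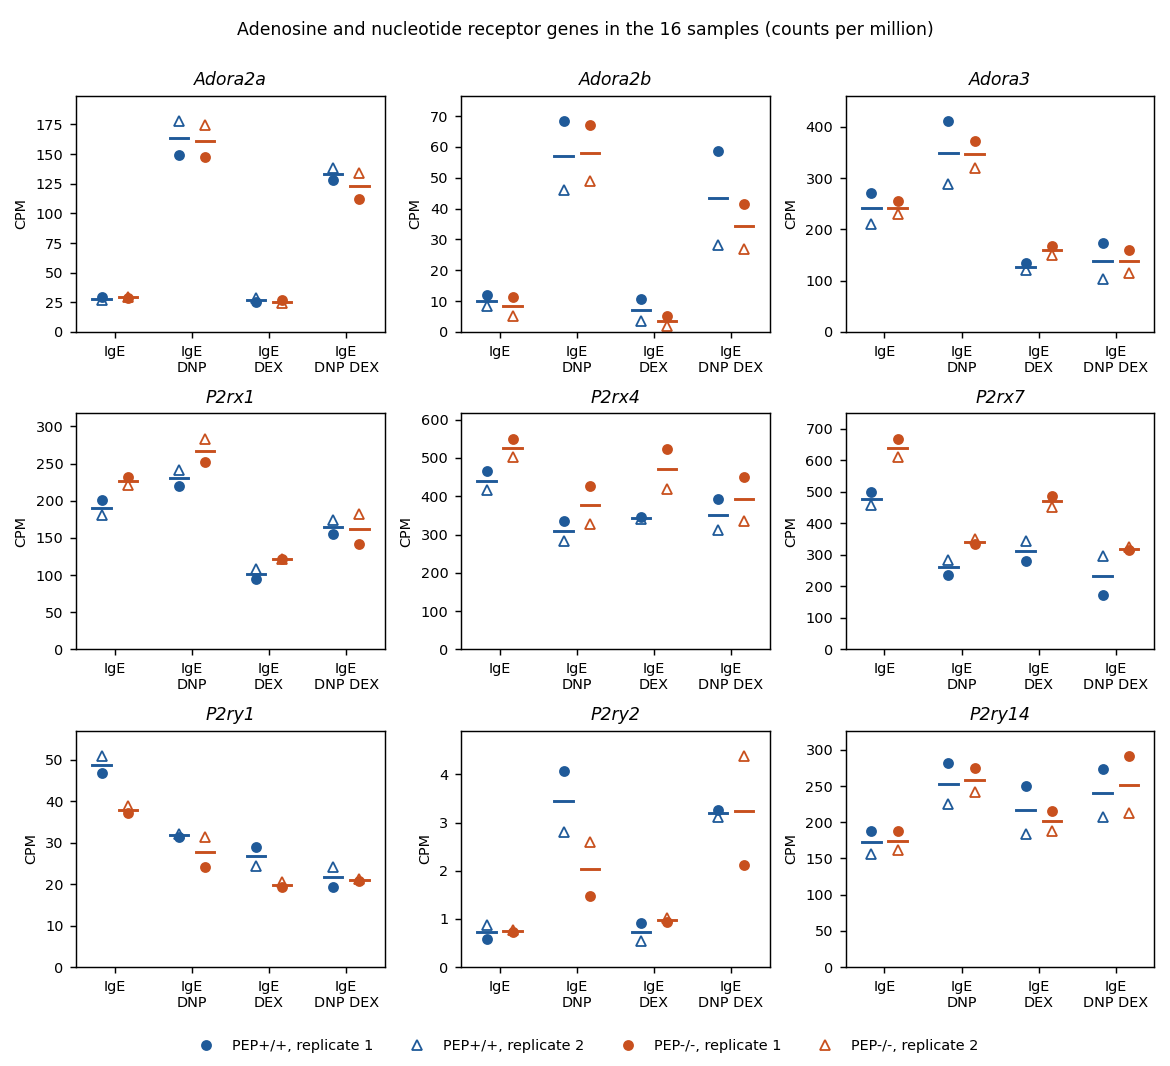
CPM of each receptor gene in all 16 samples, by treatment and genotype, with filled circles for replicate 1, open triangles for replicate 2 and a bar at the mean of both. The axes start at 0. Adora2a and Adora2b separate the treatments with and without DNP completely, and Adora3 and P2rx1 are lower in IgE DEX than in IgE samples.

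The effect of the glucocorticoid on resting, IgE-loaded cells was read from IgE DEX against IgE samples. Of the 9 genes 3 were called lower (Adora3, P2rx1 and P2ry1) and none higher without the block, against 9.37% of all genes (5.4% higher, 3.98% lower). The median log2 fold change of the 9 was -0.53. This comparison shares its IgE samples with the one above, so both sets of values are not independent of each other.

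P2rx1 was at 95.3 and 108 CPM in the PEP+/+ and at 122 and 121 CPM in the PEP-/- IgE DEX samples. Each was below every IgE sample, and the log2 fold change was -0.90 ± 0.12 (edgeR adjusted p = 0.000638). P2ry1 was at 29.0, 24.4, 19.2 and 20.5 CPM with DEX in the same order. These too were below every IgE sample, with a log2 fold change of -0.90 ± 0.13 (edgeR adjusted p = 0.0012). Adora3 was at 135, 120.0, 167 and 151 CPM with DEX, with no overlap, and fell by 0.76 ± 0.19 on the log2 scale (edgeR adjusted p = 0.0298). That call was lost without any 1 of 7 of the 8 compared samples (all but PEP+/+ IgE replicate 2), with adjusted p up to 0.117.

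The other genes did not pass this test. P2rx7 was at 281, 343, 488 and 453 CPM in IgE DEX samples, with 1 of the PEP-/- samples inside the range of the IgE group, and a log2 fold change of -0.53 ± 0.17 (edgeR adjusted p = 0.0759). It passed with the replicate block (-0.53 ± 0.13, edgeR adjusted p = 0.00795), in DESeq2 (0.0202), under library size scaling (0.0462) and without either of the PEP+/+ IgE DNP DEX samples (0.0154 and 0.0153). Adora2b had 10.6, 3.41, 5.03 and 2.03 CPM with DEX, which overlapped its IgE range, and a log2 fold change of -0.86 ± 0.43 (edgeR adjusted p = 0.313), and passed without the filter (0.00652) and with the block (-0.92 ± 0.19, edgeR adjusted p = 0.00221). The block also called P2rx4 lower (-0.26 ± 0.092, edgeR adjusted p = 0.0484) and P2ry14 higher (0.26 ± 0.085, edgeR adjusted p = 0.0331), which makes 7 of 9 genes against 26.7% of all genes in that fit. Adora2a stayed between 24.7 and 28.9 CPM and P2ry2 between 0.547 and 1.02 CPM, both inside or next to their IgE range.

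In cells that received DNP, DEX was compared as IgE DNP DEX against IgE DNP. The same 3 genes were called lower, Adora3, P2rx1 and P2ry1, and no other gene of the 9 passed the test without the block. Of all genes 10.7% were called (5.67% higher, 4.99% lower). The median log2 fold change of the 9 was -0.34.

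Adora3 was at 174, 103.5, 160 and 115 CPM with both agents, all below the lowest IgE DNP sample (289). It fell by 1.34 ± 0.20 on the log2 scale, to 0.396 of its level without DEX (edgeR adjusted p = 0.00133). P2rx1 was at 155, 175, 141 and 182 CPM, below every IgE DNP sample, and fell by 0.61 ± 0.12 on the log2 scale (edgeR adjusted p = 0.00832). The P2rx1 call was lost with only the compared samples in the fit (0.0759). P2ry1 was at 19.4, 24.1, 20.7 and 21.3 CPM, where the first and the last 2 were below all IgE DNP samples and the second was above the lowest of them, and fell by 0.47 ± 0.13 (edgeR adjusted p = 0.0444). The P2ry1 call held without PEP+/+ IgE DNP DEX replicate 2 (0.04) and was lost in the 15 other omissions of 1 sample, with adjusted p up to 0.202, and also without the filter (0.284) and with only the compared samples (0.193).

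Adora2a was at 128, 138, 112 and 134 CPM with both agents, below the 4 IgE DNP samples without overlap, with a log2 fold change of -0.34 ± 0.12 (edgeR adjusted p = 0.0967). It passed in DESeq2 (0.0388) and with the replicate block (-0.34 ± 0.091, edgeR adjusted p = 0.0101). Adora2b was at 58.7, 28.4, 41.5 and 27.0 CPM with a log2 fold change of -0.58 ± 0.41 (edgeR adjusted p = 0.455), and it passed with the block (-0.62 ± 0.16, edgeR adjusted p = 0.00705). With the block 5 of the 9 genes fell, against 33.3% of all genes that changed in that fit. P2rx4, P2rx7, P2ry2 and P2ry14 had log2 fold changes between -0.13 and 0.27 and did not pass in either fit.

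The effect of DNP in cells kept with DEX was read from IgE DNP DEX against IgE DEX samples, which are the samples of the 2 previous comparisons and add no independent support. Of the 9 genes 4 were called higher and none lower without the block, against 12.6% of all genes (7.19% higher, 5.42% lower). Adora2a rose 4.85-fold (log2 2.28 ± 0.13, edgeR adjusted p = 1.13e-06), Adora2b 7.66-fold (2.94 ± 0.45, 0.00136) and P2ry2 3.81-fold (1.93 ± 0.34, 0.00373), with no overlap between the groups. P2ry2 had 3.26, 3.12, 2.11 and 4.38 CPM with both agents. P2rx1 rose by 0.56 ± 0.12 on the log2 scale, also without overlap (edgeR adjusted p = 0.0114). The P2rx1 call was lost without PEP+/+ IgE DEX replicate 1 (0.0509), without the filter (0.0652), with only the compared samples (0.0659) and under library size scaling (0.29, edgeR adjusted p = 0.108).

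P2rx7 was at 171.5, 296, 315 and 326 CPM with both agents, which overlapped the IgE DEX range, and had a log2 fold change of -0.49 ± 0.17 (edgeR adjusted p = 0.0815). It passed with the block (-0.49 ± 0.13, edgeR adjusted p = 0.0102), in DESeq2 (0.0376), under library size scaling (0.0132) and without PEP+/+ IgE DNP DEX replicate 2 (0.00862). P2ry14, at 273, 207, 291 and 213 CPM, had 0.24 ± 0.17 (edgeR adjusted p = 0.423) and passed with the block (0.23 ± 0.085, edgeR adjusted p = 0.0465). With the block 6 of the 9 genes were called, 5 higher and 1 lower, against 37.6% of all genes in that fit. P2rx4, Adora3 and P2ry1 had log2 fold changes between -0.11 and -0.045.

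Whether DEX altered the response to DNP was tested as the difference of both DNP responses. None of the 9 genes passed with edgeR's quasi-likelihood test, where 0.331% of all genes did. None passed in DESeq2 or with the replicate block either, where the block called 1.57% of all genes. Without the block 1 (P2ry1) had an unadjusted p under 0.05, against 3.65% of all genes. That share is below the share of about 0.05 that chance alone would give, so the lack of a call does not show that the responses were alike. The differences ranged from -0.57 ± 0.27 for Adora3, whose DNP response was 0.53 without and -0.045 with DEX, to 0.43 ± 0.19 for P2ry1, whose response was -0.54 without and -0.10 with DEX. With the block the difference of Adora3 was -0.59 ± 0.15, with the lowest edgeR adjusted p of the 9 genes (0.0752). The loss of the P2ry1, P2rx4, P2rx7 and P2ry14 calls in the presence of DEX is not shown to be a difference between responses.

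The role of PEP was addressed by comparing the genotypes over the 4 treatments, 8 PEP-/- against 8 PEP+/+ samples. None of the 9 genes passed with edgeR's quasi-likelihood test, where 1.59% of all genes did. At an unadjusted p under 0.05 there were 3 (P2rx7, P2rx4 and P2ry1) against 14.2% of all genes. DESeq2 called 1, P2rx7, and the replicate block called these 3 genes, against 17.4% of all genes in that fit.

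P2rx7 had the largest difference of the channel genes. It ranged from 171.5 to 500 CPM with a median of 291 in PEP+/+ and from 315 to 669 CPM with a median of 401 in PEP-/- samples. It was higher in PEP-/- in 8 of 8 pairs of samples with the same treatment and replicate number, by 0.14 to 0.88 on the log2 scale, and the log2 fold change was 0.46 ± 0.12 (edgeR adjusted p = 0.0791). With the block it was 0.47 ± 0.095 (edgeR adjusted p = 0.0041), in DESeq2 0.47 (adjusted p = 0.00511), and without PEP+/+ IgE DNP DEX replicate 2 it was 0.57 (edgeR adjusted p = 0.0214). By treatment it was 0.42 in IgE, 0.38 in IgE DNP, 0.59 in IgE DEX and 0.45 in IgE DNP DEX samples, none of which passed alone.

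Its neighbour P2rx4 was higher in PEP-/- in 8 of 8 pairs as well, by 0.10 to 0.60 (log2 fold change 0.29 ± 0.11, edgeR adjusted p = 0.236, with the block 0.28 ± 0.065 and 0.00871). P2ry1 was lower in PEP-/- in 7 of 8 pairs, with a log2 fold change of -0.26 ± 0.094 (edgeR adjusted p = 0.217, with the block -0.26 ± 0.076 and 0.0295). Adora2b was lower in 7 of 8 pairs by a log2 fold change of -0.39 ± 0.30 and did not pass in either fit (edgeR adjusted p = 0.65, with the block 0.0517). P2rx1 was higher in PEP-/- in 7 of 8 pairs, with a log2 fold change of 0.17 ± 0.085. It did not pass in either fit (edgeR adjusted p = 0.408, with the block 0.0937). Adora2a, Adora3, P2ry2 and P2ry14 had log2 fold changes between -0.061 and 0.074 that did not pass.

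**Figure D3:**
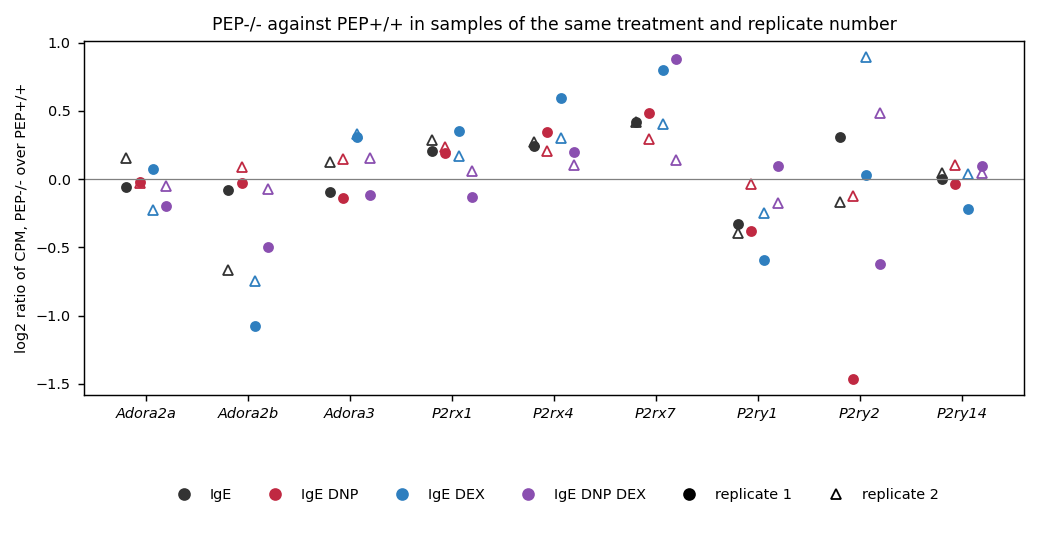
Log2 ratio of CPM in PEP-/- over PEP+/+ for each receptor gene in the 8 pairs of samples with the same treatment (colour) and replicate number (circle or triangle). All 8 points of P2rx7 and of P2rx4 and 7 of 8 of P2rx1 are above 0. Of P2ry1 and of Adora2b 7 of 8 are below it, and P2ry2 scatters from -1.46 to 0.90.

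The responses to DNP and to DEX were alike in direction for the called genes in each genotype. On the log2 scale Adora2a rose with DNP by 2.54 in PEP+/+ and 2.47 in PEP-/- BMMCs (edgeR adjusted p of 1.81e-05 and 1.48e-05), and Adora2b by 2.49 and 2.81 (0.0358 and 0.0177). P2ry2 had 2.24 in PEP+/+ (0.0224) and 1.43 in PEP-/- BMMCs (0.114, with the replicate block 1.45 ± 0.45 and 0.026). P2rx7 had -0.87 in PEP+/+ (0.0545, with the block -0.88 ± 0.19 and 0.0042) and -0.91 in PEP-/- BMMCs (0.0397). With the block both genes were thus called in both genotypes. With DEX in the absence of DNP, P2rx1 fell by 0.91 and 0.90 (0.0136 and 0.0145) and P2ry1 by 0.87 and 0.94 (0.0272 and 0.019) in PEP+/+ and PEP-/-. With DEX in the presence of DNP, Adora3 fell by 1.34 and 1.33 (0.0241 and 0.0246). Each of these values rests on 2 samples against 2. With 1 sample left out at a time each call named here but those of Adora2a was lost in 2 to 14 of the 16 omissions. Where the omitted sample is one of the 4 compared, an arm of 1 sample is left and is assumed to vary like the other conditions. With the block the number of the 9 genes called for DNP without DEX went from 3 to 8 in each genotype, which added Adora3, P2rx4, P2ry1 and P2ry14 in both besides P2rx7 in PEP+/+ and P2ry2 in PEP-/-. For DEX without DNP it went from 2 to 4 in each, with Adora3 added in both (-0.91 in PEP+/+ and -0.61 in PEP-/-), P2rx7 in PEP+/+ and Adora2b in PEP-/-. For DEX with DNP it went from 1 to 3 in PEP+/+, with P2rx1 and P2ry1, and from 2 to 4 in PEP-/-, with Adora2a and Adora2b. For DNP with DEX it stayed at 4 in PEP+/+ and went from 2 to 4 in PEP-/-, with P2rx1 and P2ry2. Shares of all genes within a genotype are not given here, so these counts alone are not a result about the 9 genes. Over both genotypes together the block raised the share of all genes called from 16.7% to 37.9% for DNP without DEX and from 9.37% to 26.7% for DEX without DNP. It rose from 10.7% to 33.3% for DEX with DNP and from 12.6% to 37.6% for DNP with DEX. The difference between the genotypes was tested for the 4 responses and passed for none of the 9 genes, with or without the block. Without the block 0.0% of the 13305 genes passed for each of these differences. At an unadjusted p under 0.05 there were 30, 40, 95 and 53 genes for DNP without DEX, DEX without DNP, DEX with DNP and DNP with DEX, none of them among the 9. Chance alone would put a share of about 0.05 of all genes under that threshold, far more than these counts. The test was thus conservative here, and the lack of a call does not show that the genotypes responded alike. The widest difference was that of P2ry2 for DNP without DEX, -0.80, and that gene had few reads.

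A list of 97 other genes of purinergic signalling was examined, of which 69 were tested. Most of the other receptor genes had few or no reads. Adora1 and P2ry6 had no read in any sample, and P2rx2, P2rx3, P2ry4, P2ry12 and P2ry13 had at most 6 reads per sample. P2rx5, P2rx6 and P2ry10 were tested. P2ry10, a lysophospholipid receptor gene despite its name, fell with DNP from 24.6 ± 4.88 to 12.8 ± 1.61 CPM (SD, n = 4, log2 fold change -0.94 ± 0.20, edgeR adjusted p = 0.00832). P2rx5, a further ATP channel gene, rose from 0.786 ± 0.43 to 3.58 ± 2.46 CPM (2.27 ± 0.70, edgeR adjusted p = 0.046), from 4 to 26 reads to 17 to 118 reads.

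With DNP in the absence of DEX 15 of the 69 genes changed, 8 higher and 7 lower (21.7% against 16.7% of all genes). Nlrp3 and Il1b, the inflammasome sensor and the cytokine whose release P2X7 is known to trigger, rose from 43.7 ± 9.28 to 279.5 ± 61.9 CPM (log2 2.69 ± 0.22, edgeR adjusted p = 1.1e-05) and from 1.24 ± 0.82 to 26.1 ± 16.1 CPM (4.43 ± 0.56, 0.000276). The G protein genes Gnai1 and Gna13 rose by 2.46 ± 0.28 and 1.94 ± 0.23 on the log2 scale, as all further changes of this list are given, and the cAMP-responsive repressor gene Crem by 2.32 ± 0.16. In the IgE samples Il1b had only 6 to 28 reads and Gnai1 11 to 27. Panx1, a channel that releases ATP, rose by 1.32 ± 0.21, and Ada, which deaminates adenosine, by 0.75 ± 0.14. The phosphodiesterase genes Pde4a and Pde7a, the receptor kinase gene Grk2, the arrestin gene Arrb2, Pik3cg and Rapgef3 fell by 0.43 to 1.89.

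With DEX in the absence of DNP 15 of the 69 changed, 7 higher and 8 lower (21.7% against 9.37% of all genes), and with DEX in the presence of DNP 16, 6 higher and 10 lower (23.2% against 10.7%). Slc28a2, a concentrative nucleoside transporter gene that carries adenosine, had 0 to 1 read in each IgE and IgE DNP sample, and 129 to 812 reads (8.40 to 42.1 CPM) in IgE DEX and 103 to 640 reads (12.4 to 50.1 CPM) in IgE DNP DEX samples. Of the receptor kinase and arrestin genes 2 rose and 2 fell in each comparison. Arrb2 rose by 1.16 ± 0.19 without and 1.38 ± 0.20 with DNP and Grk3 by 2.50 ± 0.50 and 2.33 ± 0.51, while Grk2 fell by 0.58 ± 0.10 and 0.72 ± 0.10 and Grk5 by 0.77 ± 0.17 and 0.93 ± 0.17 (edgeR adjusted p from 0.00102 to 0.015). Of the cAMP genes, Pde7a rose by 1.15 ± 0.18 and 0.90 ± 0.18 and the protein kinase A subunit gene Prkar1b by 3.21 ± 0.38 and 2.46 ± 0.37, while Prkaca fell by 0.56 ± 0.11 and 0.57 ± 0.11. Rapgef3 fell by 1.67 ± 0.36 without DNP and by 1.61 ± 0.43 with it. Some of these genes had few reads. Rapgef3 had 3 to 6 per IgE DNP DEX sample and Grk3 had 4 to 45 per IgE DNP sample. Prkar1b had 1 to 13 reads per IgE and 3 to 17 per IgE DNP sample. The adenylyl cyclase gene Adcy4 also rose, from 0 to 5 reads in the samples without DEX to 17 to 70 reads in those with it. Gnai1 fell by 1.19 ± 0.30 and 1.07 ± 0.26. Entpd3, which hydrolyses extracellular ATP, fell by 1.25 ± 0.24 and 1.16 ± 0.25, and Ada by 0.54 ± 0.14 in both. Without DNP, Panx1 rose by 0.78 ± 0.21 and P2rx6, an ATP channel gene with 1 to 23 reads per sample, fell by 1.87 ± 0.51 (edgeR adjusted p = 0.0402). With DNP, Nlrp3 fell by 1.10 ± 0.21, Il1b by 3.25 ± 0.53 and Crem by 0.57 ± 0.15. With DNP in cells kept with DEX 14 of the 69 changed, 10 higher and 4 lower (20.3% against 12.6%). Those that rose were Crem (2.18 ± 0.16), Gnai1 (2.58 ± 0.30), Gna13 (1.26 ± 0.22), Gna15 (0.84 ± 0.24), Panx1 (1.2 ± 0.21), Nlrp3 (1.15 ± 0.21), Il1b (2.40 ± 0.59), P2rx5 (2.90 ± 0.70), Ada (0.75 ± 0.14) and the nucleoside transporter gene Slc29a1 (0.77 ± 0.19), and those that fell were Grk2 (-0.56 ± 0.10), Pde4a (-1.10 ± 0.24), Pde7a (-0.96 ± 0.18) and Rapgef3 (-1.83 ± 0.42). In the IgE DEX samples Gnai1 had only 7 to 19 reads, Il1b 3 to 13 and P2rx5 6 to 15. No gene of the list passed for the interaction or between the genotypes with edgeR's quasi-likelihood test. The replicate block called 1 of the 69 for the interaction, Nlrp3, whose response to DNP was lower with DEX (-1.52, edgeR adjusted p = 0.000662, without the block -1.54 ± 0.29 and 0.0627), and 15 of the 69 between the genotypes. Of all genes that fit called 1.57% for the interaction and 17.4% between the genotypes. Without 1 sample at a time 10 to 15 genes of the list were called for DNP without DEX, 10 to 15 for DEX without DNP, 12 to 16 for DEX with DNP and 9 to 15 for DNP with DEX, where 9 were left without PEP-/- IgE DEX replicate 1, PEP+/+ IgE DEX replicate 2 or PEP-/- IgE DNP DEX replicate 2.

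The genes whose pattern was most like that of each receptor gene were taken by Pearson's r of log2(CPM + 1) over the 8 condition means, which share their samples and are not independent. For Adora2a these were Nfkbid, Gadd45b (r = 0.999 each) and Irf5 (0.998), and for Adora2b Tmem120a, Tubb6 and Arl1 (0.997 each). For Adora3 they were Zcwpw1 (0.99), Myo1e (0.987) and Zbtb22 (0.982), and for P2rx1 Zfp775 (0.991), Optn (0.99) and Ifitm2 (0.988). For P2rx4 and P2rx7 they were Leprotl1 (0.987), 4930451G09Rik (0.982) and Arl11 (0.981), and Gm16485 (0.984), Atxn3 and Abcg1 (0.98 each). P2ry1 was nearest to Gmcl1 (0.992), Pigk (0.976) and Bbs7 (0.972), P2ry14 to Hipk1 (0.996), Sema4b (0.993) and Hs3st1 (0.983), and P2ry2 to Gm26772 (0.991), Gm6169 (0.988) and Cxcl2 (0.983), where its few reads limit the measure.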

How the data were processed

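RNA from 16 BMMC samples had been prepared as TruSeq stranded mRNA libraries. Per the labels and the study's methods, TopHat2 was used by the authors for alignment to GRCm38 and HTSeq for counting on genes, and they name bcl2fastq and DESeq2 as well. The authors deposited raw counts of reads per Ensembl gene, without normalization, plus 5 summary rows for reads that named no gene (29.053 to 49.618% of the reads per sample), which were left out. Gene names came from GENCODE M21, which held 37607 of the 39179 identifiers (95.99%). From the counts, CPM and tests were computed with edgeR 4.0.16 in R 4.3.3 (TMM, filterByExpr with a minimum count of 10, glmQLFit, glmQLFTest). The standard errors of log2 fold changes were derived from these tests, as the absolute change divided by the square root of the F statistic. They are thus not a measure separate from the p-values. The fit took in all 16 samples and gave a mean to each of the 8 conditions, which left 8 residual degrees of freedom and a common biological coefficient of variation of 0.312. P-values were adjusted by Benjamini-Hochberg over 13305 genes, and fits were checked on simulated counts. Those counts were drawn without a difference between the replicate 1 and replicate 2 samples. The check therefore does not show how the main fit behaves where such a difference exists. Reads carry no molecular identifiers, so counting error is a lower limit of the error. In each condition both samples differed by more than sampling noise (chi-square over degrees of freedom from 54.9 to 163).

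The replicate block used the numbering of the labels (1 numbered and 1 lettered sample per condition). Deviations of samples from their condition means correlated across genes between same-set samples in all 28 pairs of conditions, with r from 0.453 to 0.799. The set was therefore treated as a pairing in the fit with the replicate block. The main fit had no term for the set, so the spread between sets is part of the error in its tests. What the sets stand for is not given in the sources used here.

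The 9 genes, the list of 97 other purinergic genes and the markers were chosen with earlier results of these data known. The text names the 9 genes in each comparison, up to 4 called genes of each class of the list with the lowest adjusted p, and the 3 genes most like each of the 9. Pde2a was not analysed here. Alternatives were DESeq2 1.42.0, its size factors in edgeR, no filter, a minimum of 10 counts for all samples, a fit of the compared conditions alone, the replicate block, omission of each sample, and, added after seeing the data, library size scaling.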

Additional observations from a re-analysis of the deposited data

Results flagged for a closer look

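In IgE DNP samples, P2ry1 in PEP-/- replicate 1 was at 24.04 CPM, while the 3 other samples with that treatment were at 31.3 to 32.2 CPM, a gap of 0.892 of the range of the group. It was the only sample set apart from the rest of its treatment among 36 sets of 4 samples (9 genes under 4 treatments), where chance alone sets about 1 in 20 apart. Without this sample the log2 fold change of P2ry1 was -0.46 for DNP without DEX (edgeR adjusted p = 0.0702) and -0.54 for DEX with DNP (0.054).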

How the results depend on the processing

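With the replicate block, the number of the 9 receptor genes called was 9 for DNP without DEX (7 without the block), 7 for DEX without DNP (3), 5 for DEX with DNP (3), 6 for DNP with DEX (4) and 3 between the genotypes (0). Of all genes the block called 5042 (2216), 3548 (1247), 4429 (1418), 5007 (1678), 209 for the interaction (44) and 2310 between the genotypes (212). No call among the 9 genes in these comparisons was lost under the block, and it changed no other call than those given in the report. DNP without DEX had 4 of the 9 genes without the filter on low counts. The share of all genes called in that fit is not given here, so this count alone is not a result about the 9 genes. DEX with DNP had 1 with only the conditions compared in the fit. DESeq2 called 1 between the genotypes. Of all genes, library size scaling called 3466 for DNP without DEX and 2575 for DNP with DEX. With only the conditions compared there were 805 genes for DEX with DNP and 953 for DNP with DEX. DESeq2 called 101 and the lack of a filter 107 for the interaction, and 697 and 472 between the genotypes. Among the 9 genes library size scaling reversed the sign of P2rx1 for DNP without DEX (-0.081), P2ry14 for DNP with DEX (-0.027) and P2ry14 between the genotypes (-0.011), none of them called before or after.

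Leaving out 1 sample at a time gave 4 to 7 of the 9 genes for DNP without DEX, 2 to 4 for DEX without DNP, 2 to 3 for DEX with DNP, 3 to 5 for DNP with DEX, 0 for the interaction and 0 to 1 between the genotypes. Of all genes it gave 1390 to 2251, 845 to 1269, 852 to 1317, 927 to 1604, 12 to 27 and 57 to 203 in the same order. The sign of uncalled changes reversed without 1 sample for P2ry2 with DEX (range -0.015 to 0.35 without DNP and -0.018 to 0.52 with DNP), for the interaction (-0.19 to 0.36) and between the genotypes (-0.22 to 0.046), for P2rx7 with DEX in the presence of DNP (-0.34 to 0.064), P2ry14 with DEX in the presence of DNP (-0.16 to 0.062) and between the genotypes (-0.058 to 0.066), Adora3 with DNP in the presence of DEX (-0.23 to 0.14) and between the genotypes (-0.0090 to 0.18), P2rx4 with DNP in the presence of DEX (-0.20 to 0.0046), and the interaction of Adora2b (-0.041 to 0.80). The cause of these changes was not tested.

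The calls of Adora2a, Adora2b, P2rx7 and P2ry2 for DNP without DEX, of P2rx1 and P2ry1 for DEX without DNP, of Adora3 for DEX with DNP and of Adora2a, Adora2b and P2ry2 for DNP with DEX held under each alternative with a value. P2ry2 has no value with at least 10 counts in every sample, since its lowest count was 8.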
